A study of Homo sapiens with 4 samples.

Results

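The ERBB receptors and their ligands were followed in the human melanoma line A375, which carries the *BRAF* V600E mutation, before and after the cells were made resistant to inhibitors of the MAPK pathway. The set holds 8 genes of the 32991 gene identifiers that all count tables list, chosen by name: the receptor genes *EGFR*, *ERBB2* and *ERBB3*, and the ligand genes *NRG1*, *EREG*, *AREG*, *HBEGF* and *TGFA*. Cells were untreated (S) or had been kept for 10 to 14 days on the BRAF inhibitor vemurafenib (RV), on vemurafenib with the MEK inhibitor cobimetinib (RVC), or on vemurafenib with the MEK inhibitor trametinib (RVT). Per the labels the inhibitors were given at a fraction of their IC50 and had been withdrawn for 24 h when the cells were captured. Each condition is 1 droplet library of 1 line, without a replicate, so that differences between conditions have no test and no measure of how cultures vary.

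ERBB receptors are tyrosine kinases of the cell surface that act in pairs. *EGFR* encodes the receptor for amphiregulin (*AREG*), epiregulin (*EREG*), heparin-binding EGF (*HBEGF*) and transforming growth factor alpha (*TGFA*), which are made as membrane proteins and released by shedding. *ERBB3* encodes the receptor for neuregulin 1 (*NRG1*), has a weak kinase and signals mostly together with the product of *ERBB2*, for which no ligand is known. All of them feed the RAS-MAPK and PI3K pathways, the former of which the drugs of this study block below the receptors. In melanoma, *ERBB3* is known as a gene of cells that keep the neural crest factor *SOX10*, and *EGFR* as a gene of cells that have little of it.

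The members lie on different chromosomes except for a pair. On GRCh38 (GENCODE 29), *EGFR* is on the plus strand at chr7:55019021-55211628, *ERBB2* on the plus strand at chr17:39687914-39730426 and *ERBB3* on the plus strand at chr12:56076799-56103505. *HBEGF* spans chr5:140332843-140346631 and *TGFA* chr2:70447280-70554193, both on the minus strand. *EREG* at chr4:74365143-74388751 and *AREG* at chr4:74445134-74455009 are neighbours on the plus strand, with 56382 bases between them. *ERBB3* overlaps a transcript on its own strand, AC034102.2, so that reads of the 2 could have been shared or discarded in counting, and *EGFR* and *ERBB2* overlap genes on the other strand.

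Of the 8 members, 6 had a window in the RefSeq promoter table (GRCh38.p14, 250 bases before the start of transcription and 50 from it), which also holds a second start for *EGFR* and for *TGFA*. The windows of the neighbours *AREG* and *EREG* are printed because these genes had the highest and the lowest level of RV, and those of both *EGFR* starts because this receptor gene was lowest in S and its starts differ in motifs. Capitals mark letters found on either strand, which are TGANTCA for AP-1, GGAATG for TEAD factors, ACAAAG for SOX factors, TGACGTCA for the cAMP response element (CRE) and TATAAA for the TATA box. No motif overlaps another in these windows.
*AREG*, chr4:74444886-74445185, plus strand: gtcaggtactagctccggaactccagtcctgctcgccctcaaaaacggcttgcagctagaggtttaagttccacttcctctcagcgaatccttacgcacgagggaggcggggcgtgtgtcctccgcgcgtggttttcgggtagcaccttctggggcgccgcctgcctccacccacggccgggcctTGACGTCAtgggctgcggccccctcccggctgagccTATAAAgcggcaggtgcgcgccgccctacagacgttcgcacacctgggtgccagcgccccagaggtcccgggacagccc
*EREG*, chr4:74364895-74365194, plus strand: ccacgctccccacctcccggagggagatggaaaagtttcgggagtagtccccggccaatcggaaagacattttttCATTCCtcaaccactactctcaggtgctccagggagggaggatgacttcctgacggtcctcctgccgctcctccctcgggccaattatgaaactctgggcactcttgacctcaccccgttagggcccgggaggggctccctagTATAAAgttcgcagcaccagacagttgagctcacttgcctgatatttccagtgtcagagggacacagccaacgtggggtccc
*EGFR*, chr7:55018767-55019066, plus strand: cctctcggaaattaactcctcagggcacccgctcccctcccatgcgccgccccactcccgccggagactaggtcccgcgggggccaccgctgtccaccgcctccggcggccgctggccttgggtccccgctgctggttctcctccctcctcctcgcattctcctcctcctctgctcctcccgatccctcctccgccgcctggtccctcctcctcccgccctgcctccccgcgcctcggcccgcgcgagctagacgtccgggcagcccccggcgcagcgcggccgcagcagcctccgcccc
*EGFR*, second start, chr7:55109589-55109888, plus strand: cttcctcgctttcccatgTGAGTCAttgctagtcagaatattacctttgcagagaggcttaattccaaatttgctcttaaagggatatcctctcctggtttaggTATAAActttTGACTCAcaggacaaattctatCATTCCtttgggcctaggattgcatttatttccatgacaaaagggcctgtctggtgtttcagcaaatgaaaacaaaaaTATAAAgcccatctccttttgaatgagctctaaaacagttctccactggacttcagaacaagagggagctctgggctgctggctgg

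The *AREG* window held the CRE letters 65 bases before the start and the TATA letters 29 bases before it. CRE letters occur in 1.85% and TATA letters in 11.5% of the 35116 promoters of this length. The *EREG* window had TATA letters at almost the same distance, 32 bases, and TEAD letters 175 bases before the start, which 14.0% of promoters hold. Also searched, and not marked, was the GC box (GGGCGG), which 44.95% of promoters hold. The first *EGFR* window held none of the marked motifs but the GC box at 3 places, and the *AREG* window held it once, 9 bases before the start. G and C bases made up 75.3% of the first *EGFR* window, whereas the second, inside the gene, held AP-1 letters at 2 places, 232 and 136 bases before the start (7.71% of promoters hold AP-1 letters), and had 42% G and C bases. SOX letters occur in 16.1% of promoters and, among the members, were found in the second window of *TGFA*. A match of letters is a description and no evidence of binding. Counts from transcript ends do not show which start was used.

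After filtering, 6334 S, 4177 RV, 7620 RVC and 8443 RVT cells were left. They held between 23799713 (RVT) and 56537947 (S) UMIs (unique molecular identifiers, 1 per captured transcript), with medians per cell of 8716.5, 11500, 3848.5 and 2797. Between 38 and 149 barcodes were shared by a pair of libraries, at most 1.61% of either. The line markers *VIM*, *S100A6*, *PRAME*, *CSPG4* and *AXL* were found in every library, but at unlike levels. They summed to 12073, 17130, 6377 and 2119 CPM (UMIs of a gene per 1000000 UMIs of the library) over S, RV, RVC and RVT. Against S, *VIM* was 4.46-fold lower in RVC and 7.62-fold lower in RVT. In RVT *CSPG4* was 12.2-fold and *S100A6* 5.81-fold lower, while *PRAME* and *AXL* stayed within 2-fold of S. Of 6 melanocyte genes *MLANA*, *PMEL*, *TYR* and *DCT* stayed below 0.5 CPM. The other melanocyte genes did not, with *TYRP1* at 5.15 CPM in RVC and 1.55 CPM in RVT and *MITF* at 41.4 CPM in RVT, and the list summed to 9.39 CPM in S and 43.3 CPM in RVT. Of 6 fibroblast genes the summed levels were 0.796 and 0.887 CPM for S and RV, but 191 and 37.4 CPM for RVC and RVT, and leukocyte genes summed to at most 0.789 CPM. Epithelial genes summed to 6.51, 11.9, 0.164 and 0.672 CPM over S, RV, RVC and RVT, of which *KRT14* had 6.47 CPM in S and 11.8 CPM in RV. S and RV share one gene annotation and the higher depth, and RVC and RVT share another annotation and the lower depth, so that for these pairs the drugs and the difference between libraries cannot be told apart. The libraries stand far apart. Taking genes that reached 50 CPM in either of a pair, 22 of 2401 differed over 100-fold between RVC and S and 13 of 2576 between RVT and S, against 1 of 2072 between RV and S. The median gene had a log2 ratio to S of 0.02 (RV), 0.23 (RVC) and 0.37 (RVT), and of 0.26 for RVT over RVC.

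Levels are given as CPM of summed UMIs with the exact Poisson 95% interval, ratios with an exact conditional binomial interval and shares of cells with a Clopper-Pearson interval, all of which cover counting error only. UMIs are counted at the end of transcripts and are not divided by length. Levels of different genes can still differ in how well their ends are captured, and splice forms such as those of *NRG1* cannot be told apart.

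*ERBB3* was by far the most abundant receptor transcript of untreated cells and nearly absent from both double-resistant cultures. Its level was 68.2 CPM in S (66.1 to 70.4), 14.6 CPM in RV (13.6 to 15.7), 0.393 CPM in RVC (0.203 to 0.687) and 0.672 CPM in RVT (0.384 to 1.09). These levels rest on 3858, 740, 12 and 16 UMIs. S was highest and RV second, and the intervals of RVC and RVT overlapped. Against S, *ERBB3* was 4.68-fold lower in RV (4.32 to 5.07), 173-fold lower in RVC (99.2 to 336) and 102-fold lower in RVT (62.4 to 178). RVT exceeded RVC by 1.71-fold, with an interval of 0.759 to 3.96 that includes 1.

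*EGFR* was lowest in S, where *ERBB3* was highest. Its level was 4.16 CPM in S (3.64 to 4.72), 10.7 CPM in RV (9.86 to 11.7), 7.51 CPM in RVC (6.57 to 8.55) and 14.5 CPM in RVT (13.0 to 16.2). All 4 intervals were apart, and RVC lay below RV, as it did for *ERBB3*. Compared with S, *EGFR* was 2.59-fold higher in RV (2.21 to 3.03), 1.81-fold higher in RVC (1.499 to 2.176) and 3.50-fold higher in RVT (2.96 to 4.15). The last 2 ratios should be read against the shift of the median gene given above. The log2 ratio of RVC to S was 0.85, but 0.30 in thinned cells, and that of RVT to S was 1.81, but 1.46 with TMM library factors and 1.19 when ratios were centred among genes of like GC content.

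*ERBB2*, the partner of both other receptors, was at 7.15 CPM in S (6.47 to 7.88), 7.59 CPM in RV (6.85 to 8.39), 11.1 CPM in RVC (9.99 to 12.4) and 23.0 CPM in RVT (21.1 to 24.99). S and RV could not be distinguished, with a ratio of 1.06 (0.922 to 1.22). RVT was 3.22-fold higher than S (2.82 to 3.67) and 2.06-fold higher than RVC (1.80 to 2.37). The latter did not reach 2-fold with TMM or median-of-ratios library factors (log2 ratios 0.89 and 0.86, against 1.04), with every cell weighted equally (0.93) or in thinned cells (0.78). RVC over S had a log2 ratio of 0.64, but of 1.14 when ratios were centred among genes of like GC content.

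**Figure D1:**
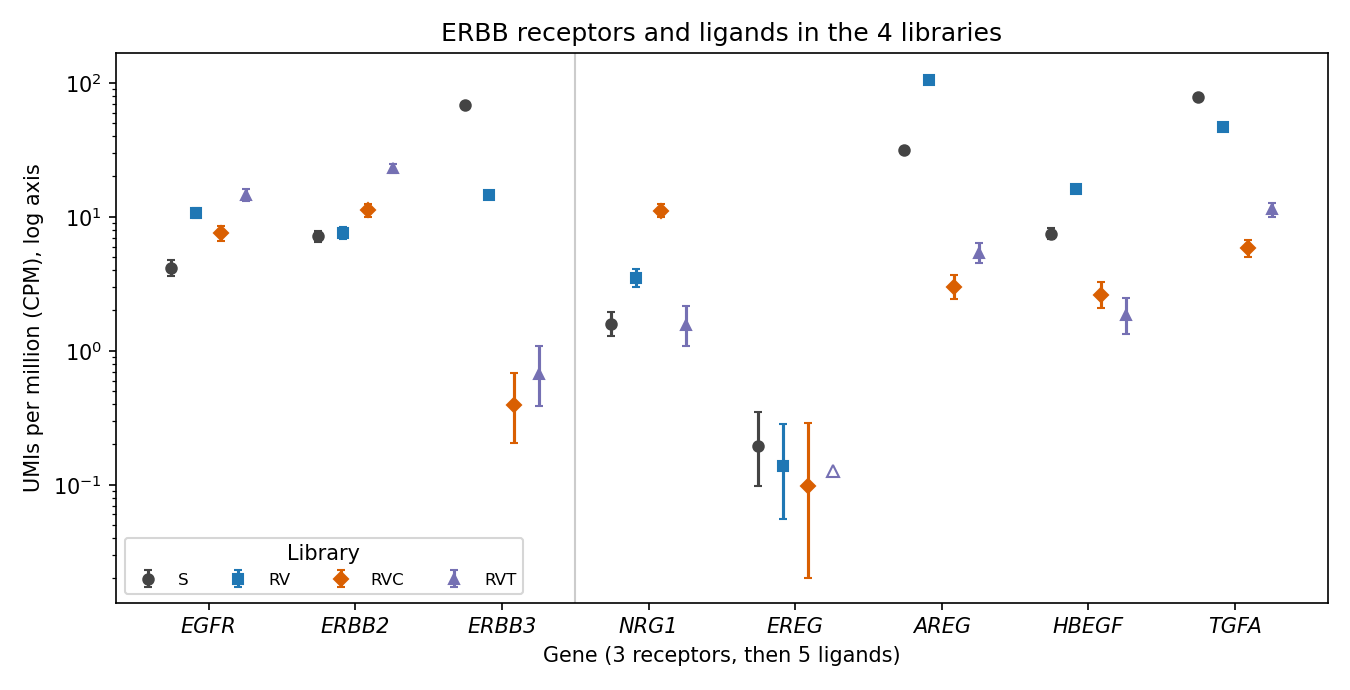
Level of each receptor and ligand gene in CPM (log axis) in the S, RV, RVC and RVT libraries, 1 point per library with exact Poisson 95% intervals. The open triangle marks the floor of 3 UMIs (0.126 CPM) at which the count of 0 for EREG in RVT is drawn. ERBB3 goes from 68.2 CPM in S to 0.393 CPM in RVC, while EGFR is lowest in S at 4.16 CPM.

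The make-up of the receptor transcripts was thus turned over. Of the UMIs of the 3 receptors in S, 85.8% were *ERBB3* (84.7 to 86.8), 8.98% *ERBB2* and 5.23% *EGFR*. In RV *ERBB3* still had the largest part with 44.3% (41.9 to 46.7), but *EGFR* had 32.6% (30.4 to 34.9) and *ERBB2* 23.1%. The intervals of RVC and RVT overlapped for each of the receptors. *ERBB2* made up 58.5% and 60.2%, *EGFR* 39.4% (35.4 to 43.5) and 38.1% (34.9 to 41.3), and *ERBB3* 2.07% and 1.76%. The sum of the 3 receptors went from 79.5 CPM in S to 32.9 CPM in RV, 19.05 CPM in RVC and 38.2 CPM in RVT, so that the larger share of *EGFR* came with a smaller sum of receptor transcripts in every resistant culture.

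Among the ligands of *EGFR*, *TGFA* led in S and *AREG* in RV. *TGFA* was at 77.7 CPM in S (75.4 to 80.1), 46.5 CPM in RV (44.7 to 48.4), 5.84 CPM in RVC (5.01 to 6.76) and 11.3 CPM in RVT (10.0 to 12.8). It was 1.67-fold lower in RV than in S (1.59 to 1.76), 13.3-fold lower in RVC (11.5 to 15.6) and 6.85-fold lower in RVT (6.06 to 7.78). The order S, RV, RVT, RVC had no overlapping intervals.

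*AREG* had the highest level of any member in any library. It was at 31.6 CPM in S (30.2 to 33.1), 106 CPM in RV (103 to 109), 3.02 CPM in RVC (2.43 to 3.70) and 5.38 CPM in RVT (4.49 to 6.39). RV was 3.34-fold higher than S (3.17 to 3.53), whereas RVC was 10.5-fold lower (8.51 to 13.1) and RVT 5.88-fold lower (4.92 to 7.10). *AREG* UMIs were unevenly spread over cells. A single S cell held 121 of the 1789 *AREG* UMIs, 6.76%, and without it the level in S was 29.5 CPM. That value lies below the interval of 30.2 to 33.1. The intervals take UMIs as independent and are too narrow for *AREG*. In RVT 1 cell held 15 of 128 UMIs, without which the level was 4.75 CPM.

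*HBEGF* was, like *AREG*, highest in RV and lower in RVC and RVT than in S. It had 7.48 CPM in S (6.79 to 8.23), 16.0 CPM in RV (14.9 to 17.2), 2.62 CPM in RVC (2.08 to 3.26) and 1.85 CPM in RVT (1.34 to 2.48). It was 2.14-fold higher in RV than in S (1.90 to 2.42), and 2.85-fold lower in RVC (2.24 to 3.67) and 4.05-fold lower in RVT (2.96 to 5.65). Between RVC and RVT the intervals overlapped, and the ratio of RVC to RVT was 1.42 (0.970 to 2.10).

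*EREG*, the neighbour of *AREG*, was close to the limit of detection. S had 11 UMIs of it, RV had 7, RVC had 3 and RVT had 0. These are 0.195 CPM for S, 0.138 CPM for RV and 0.0983 CPM for RVC, and the count of 0 in RVT has an upper limit of 0.155 CPM. Its ratio of RV to S was 0.709 (0.233 to 2.00), so that no difference was detectable at this depth. In thinned cells 1 S cell, 2 RV cells and no RVC or RVT cell had an *EREG* UMI, which turned the sign of the ratio, and no direction is read from it. In RV, where *AREG* reached 106 CPM, *EREG* stayed at 7 UMIs.

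*NRG1*, the ligand of *ERBB3* (chr8:31639386-32767959, plus strand), differed from the *EGFR* ligands in that it was highest in RVC. Its level was 1.59 CPM in S (1.28 to 1.96), 3.51 CPM in RV (3.01 to 4.07), 11.1 CPM in RVC (9.96 to 12.4) and 1.55 CPM in RVT (1.09 to 2.14). RV was 2.205-fold (1.70 to 2.87) and RVC 6.98-fold (5.52 to 8.91) higher than S, while S and RVT could not be distinguished, although RVT over S had a log2 ratio of -0.75 with GC centring, against -0.03. RVT was 7.15-fold lower than RVC (5.08 to 10.3). *NRG1* was thus most abundant where its receptor *ERBB3* had 12 UMIs in 7620 cells. The fibroblast genes also had their highest sum in RVC, where all 6 had a UMI against 4 in S and in RV and 5 in RVT. Among them *COL3A1* had 130.0 CPM and *PDGFRA* 21.3 CPM in RVC, *LUM* had 22.5 CPM in RVC and 22.6 CPM in RVT, and *COL1A1* was higher in RVT (3.28 CPM) than in RVC (2.82 CPM). The collagen gene *COL1A2* was at 0.262 CPM in RVC and at 0 UMIs elsewhere. The sum of the 10 mitotic genes had the same order of libraries as *NRG1*, with 499, 648, 990 and 187 CPM over S, RV, RVC and RVT. Not every mitotic gene had this order. *CDC20*, *PLK1* and *UBE2C* were highest in RV and lower in RVC than in S, and *TOP2A* was lower in RV than in S. In the 1509 RVC cells with mitotic genes *NRG1* had 10.3 against 11.3 CPM in the others, a ratio of 0.911 (0.685 to 1.20), and the intervals of the other libraries also included 1. The part of the fibroblast genes in the *NRG1* level was not tested.

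The make-up of the ligands followed. *TGFA* took 65.5% of the ligand UMIs in S (64.4 to 66.7) and *AREG* 26.7%. In RV *AREG* took 61.5% (60.5 to 62.5) and *TGFA* 27.0%. In RVC *NRG1* took 49.0% (45.2 to 52.8) and *TGFA* 25.7%, and in RVT *TGFA* again led with 56.4% (51.8 to 60.9) before *AREG* with 26.7%. The sum of the 5 ligands was 119 CPM in S, 172 CPM in RV, 22.7 CPM in RVC and 20.1 CPM in RVT.

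**Figure D2:**
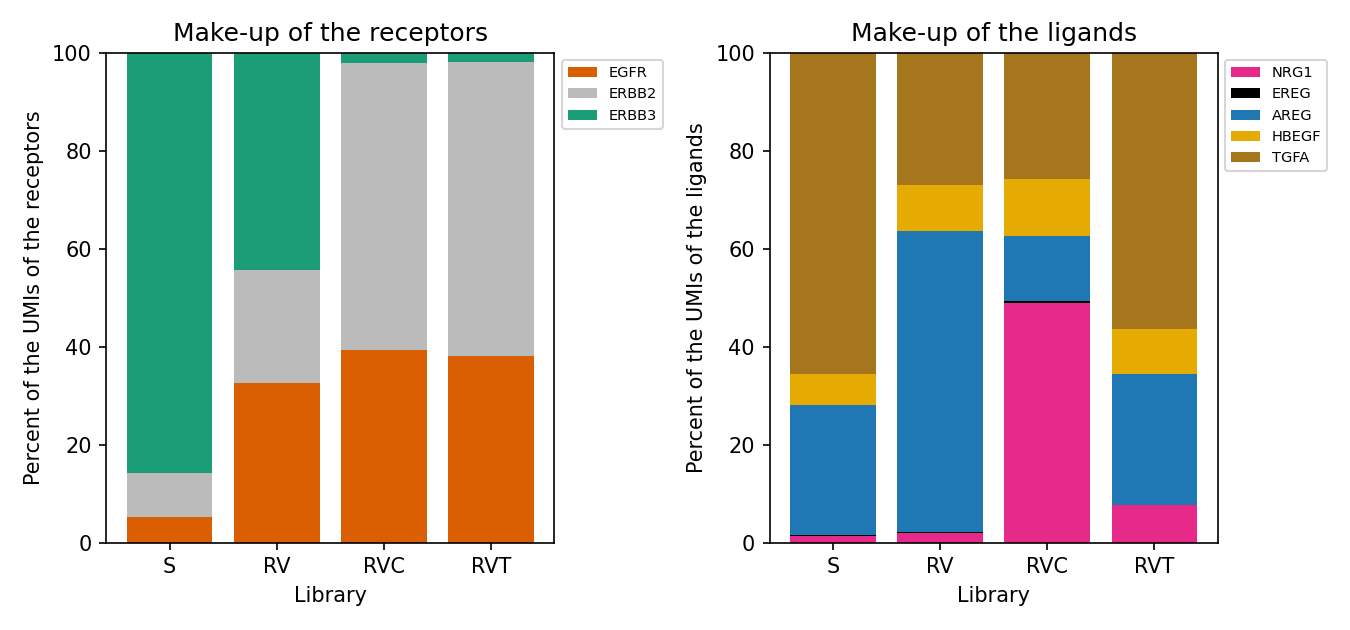
Percent of the UMIs of the 3 receptors (left) and of the 5 ligands (right) that each gene took in the S, RV, RVC and RVT libraries. ERBB3 goes from 85.8% of receptor UMIs in S to 2.07% in RVC, and the leading ligand changes from TGFA in S (65.5%) to AREG in RV (61.5%), NRG1 in RVC (49.0%) and TGFA in RVT (56.4%).

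Set against all 10316 genes with a mean of at least 3 CPM over the libraries, which 7 members passed and *EREG* did not, the members had the following counts. In RV over S 5 of the 7 passed 2-fold, where 4.61% of all genes did. *EGFR*, *NRG1*, *AREG* and *HBEGF* were higher (2.55% of all genes) and *ERBB3* was lower (2.06%). The median log2 ratio of the 7 was 1.10. In RVC over S 5 of 7 passed 2-fold, which 45.5% of all genes did, with *NRG1*, which passed the filter only through its level in RVC, higher (23.7% of all genes) and *ERBB3*, *AREG*, *HBEGF* and *TGFA* lower (21.9%), at a median of -1.51. In RVT over S 6 of 7 passed, against 55% of all genes, with *EGFR* and *ERBB2* higher (32.9% of all genes) and the same 4 genes as in RVC lower (22.1%), at a median of -2.02. In RVT over RVC 2 of 7 passed, against 30.6% of all genes, with *ERBB2* higher (19% of all genes) and *NRG1* lower (11.5%). Where such a large share of all genes passes, as for RVC and RVT, the number of members past 2-fold is no result about the members. The members were chosen with earlier results of these data known, so that the count in RV over S is no independent support either. There the intervals of *NRG1* (1.70 to 2.87) and *HBEGF* (1.90 to 2.42) also included 2-fold. The comparisons with S share the S library, so that a deviation of that library would move all of them.

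Shares of cells carry the same pattern but depend on depth. At full depth 39.7% of S cells (38.5 to 40.9) and 13.5% of RV cells (12.4 to 14.5) had an *ERBB3* UMI, but 0.157% and 0.190% of RVC and RVT cells. After thinning each cell to 1500 UMIs at random, which left out 403 RVC and 852 RVT cells with fewer UMIs, the shares were 10.1%, 2.51%, 0.0693% and 0.119%. For *EGFR* thinning changed the order. It was seen in 3.54% of S, 12.0% of RV, 2.93% of RVC and 3.97% of RVT cells, and in thinned cells in 0.710%, 1.84%, 0.859% and 2.17%. In thinned cells RVT thus passed RV and RVC passed S, with overlapping intervals. The intervals of RVT (1.86 to 2.53) and S (0.519 to 0.949) overlapped at full depth but were apart in thinned cells. *AREG* was seen in 10.8% of S but 44.3% (42.8 to 45.8) of RV cells, and in thinned cells in 3.02% and 11.4%. *TGFA* was seen in 43.0% of S, 32.7% of RV, 2.205% of RVC and 3.01% of RVT cells, and in thinned cells in 10.9%, 6.85%, 0.693% and 1.51%. No cells known to lack these genes were set apart in the cultures, so that the share that free RNA alone would give was not measured.

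**Figure D3:**
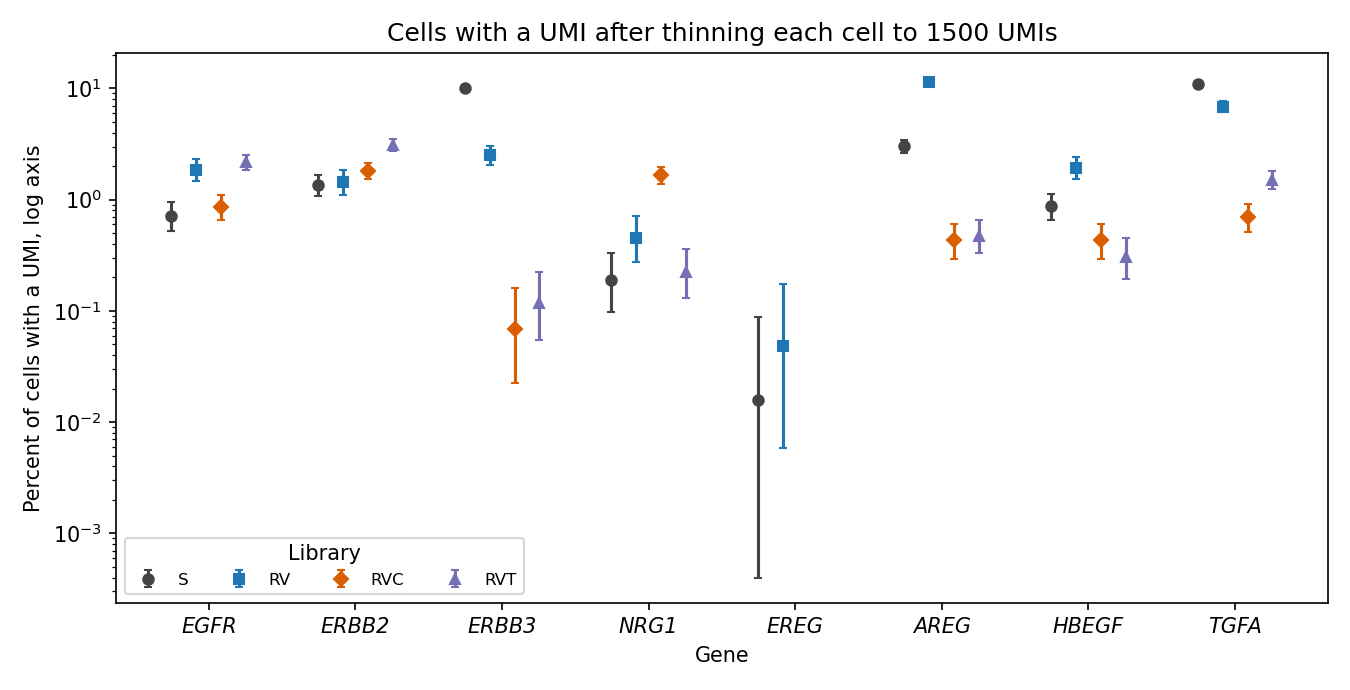
Percent of cells with at least 1 UMI of each gene (log axis) after thinning every cell to 1500 UMIs, 1 point per library with Clopper-Pearson 95% intervals; libraries without such a cell are left out (EREG in RVC and RVT). AREG is seen in 11.4% of thinned RV cells and 3.02% of thinned S cells, and ERBB3 in 10.1% of thinned S cells and 0.0693% of thinned RVC cells.

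Of the members with a value, *AREG* also had the largest variance of UMIs over cells for its mean in S, RV and RVT. In thinned cells the variance of its UMIs per cell was 3.44 times the mean in S, 1.51 times in RV and 2.62 times in RVT, where a Poisson spread gives a ratio of 1. Without the cell with the most *AREG* UMIs of each library it was 2.34, 1.43 and 1.95. The same ratio was 1.10 for *ERBB3* and 1.06 for *TGFA* in S. Per cell with *AREG* there were 2.61 UMIs in S and 2.90 in RV.

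In S and RV *EGFR* was seen less often in cells with *ERBB3* than in the others, with intervals that did not overlap at full depth. In S, 47 cells had UMIs of both, 1.87% of the 2514 *ERBB3* cells (1.38 to 2.48), whereas 4.63% of the other cells had *EGFR* (3.99 to 5.35). In RV 36 cells had both, 6.41% of the *ERBB3* cells (4.53 to 8.76) against 12.8% of the others (11.8 to 14.0). In thinned cells 1 of 637 *ERBB3* cells of S had *EGFR*, 0.157% (0.00397 to 0.872), against 0.772% of the others (0.562 to 1.04), and in RV none of 105 did (up to 3.45%) against 1.89% (1.495 to 2.36). In RVC 2 of the 12 *ERBB3* cells had both, 16.7% (2.09 to 48.4) against 2.90% of the others, and in RVT 2 of 16, 12.5% (1.55 to 38.3) against 3.95%. At least 1 UMI of an *EGFR* ligand was found in 57.1% of the *EGFR* cells of S (50.4 to 63.7) and 53.0% of its other cells (51.7 to 54.2), and in RV in 69.4% (65.2 to 73.4) and 66.4% (64.9 to 68.0), so that both pairs of intervals overlapped. The share in RVC was 7.17% (4.16 to 11.4) against 4.15% (3.71 to 4.63), which also overlapped. In RVT it was 7.16% (4.64 to 10.5) against 4.14% (3.72 to 4.601), and 6.06% (2.94 to 10.9) against 2.21% (1.89 to 2.57) in thinned cells, so that there the intervals were apart at both depths. *ERBB3* and *NRG1* were seen together in 14 S and 9 RV cells.

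Cells were next split within each library, which leaves aside the differences between libraries. Classes were set from the 1500 thinned UMIs, and levels were taken over all UMIs of the cells. Cells with at least 2 of 12 neural crest markers, among them *SOX10*, *CD74* and *S100B*, numbered 1852 in S and 376 in RV. The study chose these markers on the same samples and named *ERBB3* beside them. *ERBB3* was not used for the class, but its higher level there was to be expected from that choice and is no independent support. The markers include the antigen presentation genes *CD74*, *HLA-DRA*, *HLA-DRB1*, *HLA-DRB5* and *HLA-DQA1*, so that the class is not one of neural crest genes alone. In S the cells of the class had an *ERBB3* level of 109 CPM against 52.6 CPM in the other cells, 2.07-fold higher (1.94 to 2.21). Their *TGFA* level was 106 against 66.8 CPM. In RV the contrast was larger for *ERBB3*, with 67.0 against 10.6 CPM, 6.29-fold higher (5.37 to 7.36), and *TGFA* had 120 against 41.0 CPM, 2.93-fold higher (2.63 to 3.26). *EGFR*, *HBEGF* and *AREG* were lower in these cells in both libraries. In S, *EGFR* had 1.72 against 5.10 CPM, *NRG1* 0.382 against 2.06 CPM, *HBEGF* 2.86 against 9.26 CPM and *AREG* 12.6 against 39.0 CPM, or 36.0 CPM without the cell with 121 *AREG* UMIs. In RV, *EGFR* had 4.78 against 11.2 CPM, *HBEGF* 6.75 against 16.7 CPM and *AREG* 65.0 against 109 CPM. *NRG1* had a ratio of 0.543 in RV with an interval that includes 1 (0.215 to 1.14), as did that of *EREG* in S (0.260, 0.00598 to 1.82). *ERBB2* had ratios whose intervals included 1, with 1.01 in S (0.804 to 1.26) and 1.29 in RV (0.876 to 1.83). Cells of the class held fewer UMIs than the others, with medians of 8298 and 8901 in S and of 8982.5 and 11728 in RV, and the part of this in the ratios was not tested.

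In cells outside the marker class *ERBB3* was still 52.6 CPM in S and 10.6 CPM in RV, and within it 109 and 67.0 CPM. *EGFR* outside the class had 5.10 CPM in S and 11.2 CPM in RV. Both differences between S and RV had the same direction within the class and outside it. The class was set from thinned UMIs, so that cells with the markers can be missed, and it does not make S and RV cells alike. Outside it *SOX10* was still at 69.9 CPM in S and 34.2 CPM in RV. The part of the make-up of cells in the 2 differences was not tested. *TGFA* within the class was 106 CPM in S and 120 CPM in RV, and outside it 66.8 and 41.0 CPM. The RVT library held 662 cells of the class, in which *ERBB3* had 2 UMIs and the ratios of *EGFR*, 1.01 (0.671 to 1.48), and *TGFA*, 0.956 (0.588 to 1.48), included 1. Among the markers, RVT had 12346 UMIs of *CD74* and 2014 of *HLA-DRA*, against 460 of *SOX10*, 44 of *RAMP1* and 7 of *S100B*. The class there thus leans on antigen presentation genes and is not read as neural crest cells. RVC had too few such cells to split.

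*KRT81*, a hair keratin, had 304 CPM in the S cells of the marker class and 1453 CPM in the other S cells. A split by *KRT81* is thus not independent of the marker class, and it gave the reverse picture in S. Its 2761 cells with a *KRT81* UMI had *EGFR* at 6.37 against 2.35 CPM, 2.71-fold higher (2.05 to 3.63), *HBEGF* at 13.6 against 2.51 CPM, 5.41-fold higher (4.22 to 7.01), and *NRG1* at 3.03 against 0.418 CPM, 7.24-fold higher (3.99 to 14.2). *ERBB3* had 41.7 against 90.0 CPM and *TGFA* 53.5 against 97.5 CPM in these cells. *AREG* did not go with *HBEGF* here. It had 24.96 against 37.1 CPM, and 33.2 CPM in the other cells without the cell with 121 *AREG* UMIs, which leaves a ratio of 0.751 (0.679 to 0.830). In RV the split by *KRT81* (1513 cells) gave ratios nearer 1 than in S for *EGFR*, *NRG1* and *HBEGF*. *EGFR* had a ratio of 1.14 (0.956 to 1.36), *NRG1* of 1.13 (0.828 to 1.55) and *HBEGF* of 1.28 (1.11 to 1.47). *AREG* was here on the other side of 1 than in S, with a ratio of 1.26 (1.19 to 1.33), while *ERBB3* had a ratio of 0.472 (0.393 to 0.563), close to the 0.463 of S. In RV cells with and without *KRT81*, *EGFR* had 11.6 and 10.2 CPM, *HBEGF* 18.6 and 14.5 CPM and *NRG1* 3.79 and 3.34 CPM. Both classes of S cells had lower values than both classes of RV cells for these genes, but no intervals were made for these pairs. In the S cells with *KRT81*, *HBEGF* at 13.6 CPM and *NRG1* at 3.03 CPM neared the RV cells without it, whereas *EGFR* stayed at 6.37 CPM.

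**Figure D4:**
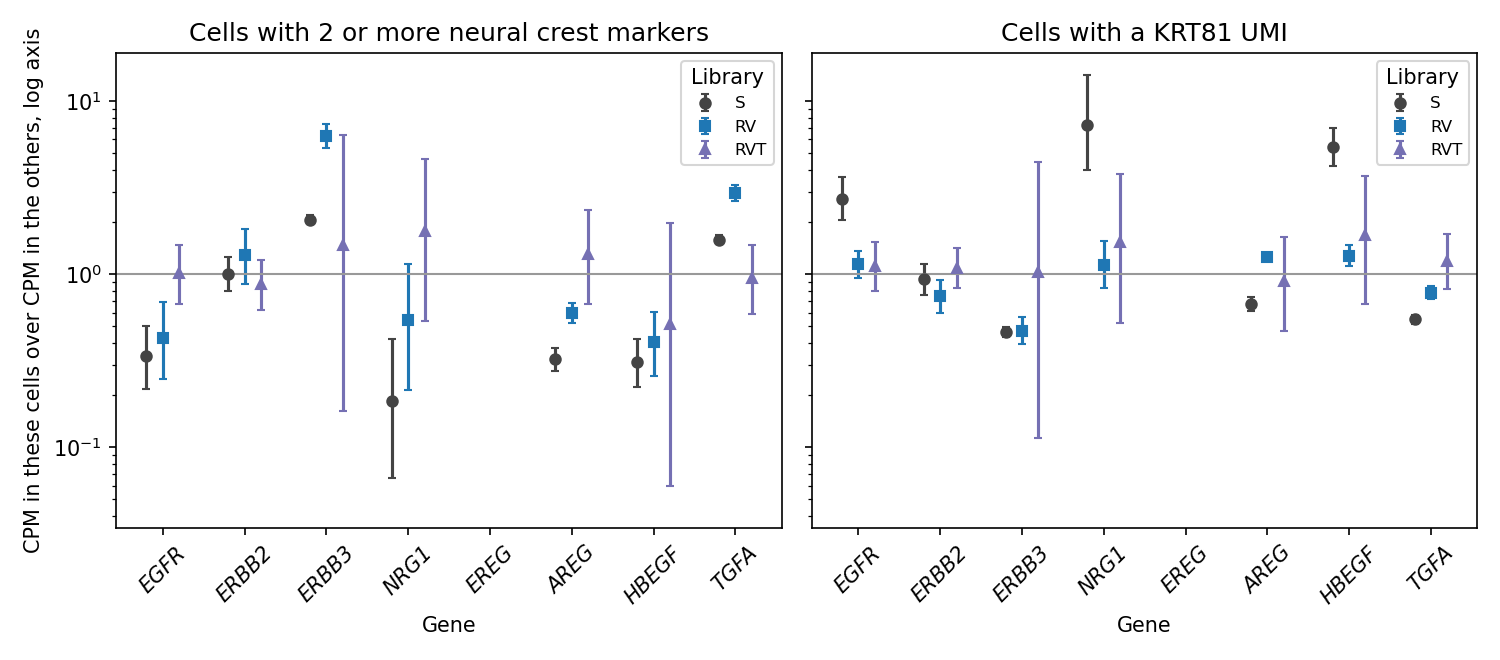
Ratio of the level (CPM) of each gene in cells with at least 2 neural crest markers (left) or with a KRT81 UMI (right) to its level in the other cells of the same library (log axis), with exact 95% intervals, for S, RV and RVT. In S the ratios of EGFR, NRG1 and HBEGF lie at 0.337, 0.185 and 0.309 on the left and at 2.71, 7.24 and 5.41 on the right, whereas ERBB3 lies at 2.07 and 0.463.

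Splits by *CD74*, by *SOX10* (added after seeing the data) and by mitotic genes gave further values. The study lists *CD74* and *SOX10* together with *ERBB3*, so that these splits give no independent support for *ERBB3*. In the 3400 *CD74* cells of S, *ERBB3* was 2.55-fold higher (2.37 to 2.74) and in the 1076 of RV 4.71-fold higher (4.06 to 5.47), but in RVC and RVT, where *ERBB3* had few UMIs, the interval of every member with at least 10 UMIs included 1. For every 100 *SOX10* UMIs, S had 76.7 *ERBB3* UMIs (73.5 to 80.0), RV had 35.6 (32.7 to 38.7) and RVT had 3.48 (1.97 to 5.71). RVT cells had *SOX10* at 19.3 CPM, while RVC had no *SOX10* UMI at all, with an upper limit of 0.121 CPM. In the 215 *SOX10* cells of RVT *AREG* had 18.0 against 4.67 CPM (ratio 3.86, 1.93 to 7.03), which rests on 12 UMIs. The interval leaves out that *AREG* UMIs are unevenly spread over cells. In S the same split went the other way for *AREG*, with 16.3 against 33.7 CPM (ratio 0.484, 0.394 to 0.588), and in RV the ratio was 1.13 (1.004 to 1.262). Mitotic cells had less *ERBB3* and *TGFA* in S (ratios 0.651 and 0.727) and in RV (0.670 and 0.500), while the intervals of *EGFR* included 1, with ratios of 1.07 (0.663 to 1.65) and 1.02 (0.788 to 1.32). Mitotic cells held more UMIs than the others, with medians of 10151.5 and 8614.5 in S and of 12915 and 11321.5 in RV. The part of this in any ratio for mitotic cells was not tested.

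Of the wider pathway, 71 genes were described, of which 58 had a mean of at least 3 CPM. None of the remaining family members did. *ERBB4*, the fourth receptor, had at most 1 UMI per library, *EGF* at most 8, and *EPGN* and *NRG3* were near 0. *BTC*, another ligand of *EGFR*, was at 0.761 CPM in S and 1.28 CPM in RV and at 0.0983 CPM in RVC and 0.294 CPM in RVT. The neuregulin gene *NRG4* had 3.44 CPM in RVC and 0.0884 CPM in S, so that it shared the high level in RVC with *NRG1*, and *NRG2* stayed between 1.03 and 1.97 CPM.

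In RV over S, 4 of the 58 genes were at least 2-fold higher and 3 lower, where 2.55% and 2.06% of all genes were, and the median log2 ratio was -0.09. None of the 8 genes of ligand shedding and none of 16 adaptors passed 2-fold, but with 4.61% of all genes past it nothing is read from this. *CAV1*, which encodes the membrane protein caveolin, was 3.35-fold higher (288 against 86.0 CPM), and of the transcription factors *FOSL1* (346 against 162 CPM) and *JUN* (22.4 against 10.9 CPM), both AP-1 subunits, were 2.14-fold and 2.06-fold higher, as was *MITF* at 19.3 against 9.09 CPM. *SOX10* was lower at 41.0 against 88.9 CPM, and so were *LRIG3* (7.28 against 15.6 CPM) and the phosphatase gene *PTPRJ* (2.46 against 6.35 CPM).

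RVC had 17 of the 58 genes at least 2-fold higher than S and 7 lower, and RVT 33 higher and 7 lower, with median log2 ratios of 0.49 and 1.26. Of all genes 23.7% were higher and 21.9% lower in RVC, and 32.9% and 22.1% in RVT. The filter was passed only through the level in RVC by 1 of the 58 genes, *ADAM12*, and only through that in RVT by 5, beside 2.02% and 4.94% of all genes tested. Of the 6 transcription factors that passed the filter 2 were higher and 2 lower in RVC, and 3 higher and 2 lower in RVT. In RVC *FOSL1* was at 111 CPM, *JUN* at 32.4 CPM and *MITF* at 7.51 CPM, while *EGR1* was 4.57-fold higher than in S (102 against 22.4 CPM) and *TFAP2A* lower (5.11 against 10.7 CPM). In RVT, where *EGFR* was highest, *FOSL1* was 11.6-fold lower than in S (14.0 CPM), *JUN* was within 2-fold (12.9 CPM) and *MITF* was 4.56-fold higher (41.4 CPM). *EGR1* (121 CPM) and *TFAP2A* (33.5 CPM) were 5.41-fold and 3.13-fold higher there. Among the sheddases, *ADAM12*, which can release *HBEGF*, stood at 0.531, 0.296, 31.0 and 4.75 CPM over S, RV, RVC and RVT. *ADAM17*, which releases *AREG* and *TGFA*, was at 15.3, 12.0, 29.8 and 36.9 CPM. *ADAM17* was within 2-fold of S in RVC. Of the 8 shedding genes 3 were higher and 2 lower in RVC and 4 higher and 2 lower in RVT, the lower ones being *ADAM15* (40.1, 52.7, 5.38 and 9.45 CPM) and *TIMP3*, a sheddase inhibitor (30.8, 42.4, 7.28 and 14.2 CPM). Of 16 adaptors 11 were at least 2-fold higher in RVT and none lower, beside the 32.9% and 22.1% of all genes. Of the 11, *SOS2*, *PIK3R2* and *PIK3R3* had passed the filter of 3 CPM only through their level in RVT, so that they had to be higher there and the count supports nothing. The higher genes included *SHC1* (58.9, 76.4, 148 and 353 CPM in S, RV, RVC and RVT), the PI3K subunit gene *PIK3R3* (0.513, 0.552, 1.67 and 14.3 CPM) and *STAT3* (24.5, 19.2, 30.1 and 111 CPM). *GRB2*, the adaptor common to all these receptors, lay between 28.4 and 40.5 CPM in all libraries.

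*ERRFI1*, an inhibitor of *EGFR* that signalling induces, stood at 98.7, 69.2, 227 and 82.0 CPM over S, RV, RVC and RVT. *SOCS5* was at 4.69, 5.60, 11.4 and 37.6 CPM, and *CBLB*, a ubiquitin ligase for the receptors, at 4.09, 2.19, 7.15 and 16.6 CPM. Of 18 inhibitors and turnover genes 10 were at least 2-fold higher and 1 lower in RVT than in S, again beside 32.9% and 22.1% of all genes. *LRIG2* was among the 10 and had passed the filter only through its level in RVT (9.83 against 3.04 CPM in S), so that nothing is read from this count either. *RNF41*, the ubiquitin ligase of *ERBB3*, stayed between 27.5 and 52.6 CPM. Among trafficking genes *HGS*, which sorts receptors for degradation, was lower in RVC and RVT (67.0, 74.6, 16.8 and 14.2 CPM) and *STAM*, its partner, was higher (3.27, 3.61, 19.9 and 16.98 CPM).

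**Figure D5:**
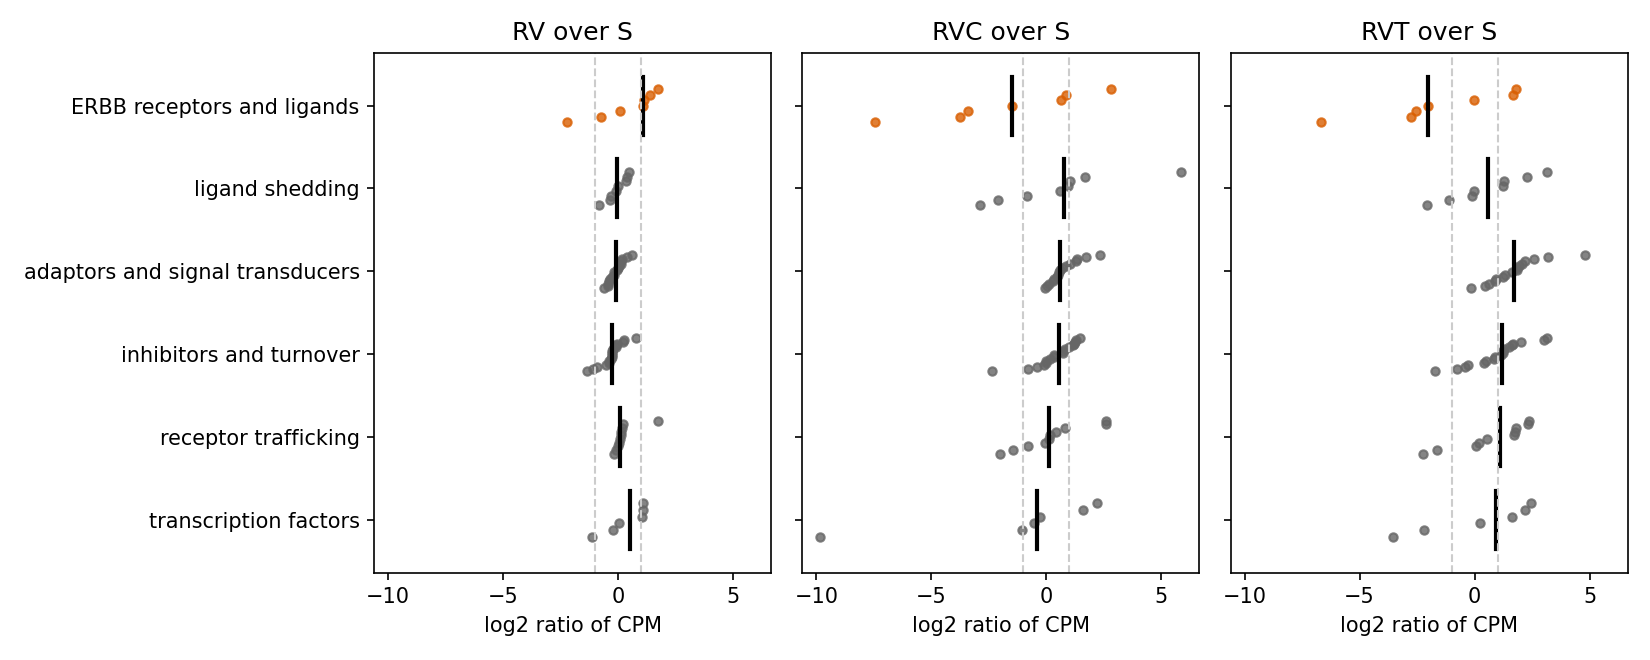
Log2 ratio of CPM to the S library for the 7 tested ERBB receptor and ligand genes (top row, orange) and the tested genes of 5 pathway lists (grey), 1 point per gene, with the median of each row as a black bar and 2-fold as dashed lines, for RV, RVC and RVT (SOX10, without a UMI in RVC, is drawn there at 3 UMIs). The medians of the receptor and ligand genes are 1.10, -1.51 and -2.02 in these panels. NRG1 and ADAM12 passed the filter only through RVC, and 3 adaptors and 2 genes of other lists only through RVT.

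The genes whose levels over the 4 libraries were most like those of a member were taken from 8261 genes with at least 10 CPM in the highest library, by the Euclidean distance of centred log2 CPM. For *EGFR* they were *MYOF* (distance 0.231), *TNFRSF21* (0.233) and *HIST1H1C* (0.377), for *ERBB3* *S100B* (0.827), *PLCG2* (0.911) and *CAPS* (1.11), and for *NRG1* *CCNB1* (0.478), *DKK1* (0.480) and *UBE2T* (0.485). *MYOF* had 15.2, 33.9, 27.2 and 57.1 CPM in S, RV, RVC and RVT. *S100B*, a gene of neural crest derivatives, had 34.3 and 7.28 CPM in S and RV, no UMI in RVC and 0.294 CPM in RVT. *DKK1* had 27.1, 88.7, 188 and 32.9 CPM. Likeness over 4 libraries is a description.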

How the data were processed

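Single-cell RNA sequencing of A375 cells was analysed in 4 libraries, 1 per condition, grouped by their labels. The authors used the 10x Genomics Chromium v2 kit (10000 cells loaded) and, per the labels, bcl2fastq 2.20.0.422 and Cell Ranger on GRCh38. The version of Cell Ranger, the annotation and the filters before deposit are not given in the sources used here. The deposited files hold raw UMI counts, whole numbers that were not normalized, with an Ensembl identifier for each gene and a column for each barcode.

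Barcodes with under 500 genes or over 20% mitochondrial UMIs were removed, and so were the barcodes with the most UMIs, at 0.8% per 1000 barcodes, in place of a doublet caller. UMIs were summed per gene and library and given as CPM. A count of 0 was taken as 3 UMIs. With 1 library per condition no test was run and no p-value was made. Genes with a mean of at least 3 CPM entered counts past 2-fold. Thinning used random seed 1. Genes were placed with GENCODE 29 and promoters taken from RefSeq (GRCh38.p14). Calculations used python 3.11.15, numpy 2.4.6, pandas 2.3.3, scipy 1.17.1, matplotlib 3.10.9, and, for scaling factors, edgeR 4.0.16 in R 4.3.3. The calculation of ratios was tested on simulated sums.

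All 8 members are named. Of the pathway lists, genes past 2-fold were counted and examples given, and for *EGFR*, *ERBB3* and *NRG1* the 3 most similar genes are named. Members, lists and splits were chosen with earlier results of these data known, and the lists give no independent support. Alternatives were other cell filters, no doublet removal, other scaling, equal weight of cells, thinning, centring within 20 bins of the GC content of the last 500 transcript bases, other filters on low genes and other folds.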

Additional observations from a re-analysis of the deposited data

How the results depend on the processing

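No paired analysis was possible because each condition has 1 library and the labels give no shared replicate numbers. For the same reason no replicate could be left out. The number of members past 2-fold in RV over S, 5, was 2 with a mean of at least 10 CPM (4 members tested) and 1 at 4-fold. In RVC over S, 5 became 3 with a mean of at least 10 CPM. In RVT over RVC the number, 2, was 1 with TMM factors, with median-of-ratios factors, with a mean of at least 10 CPM and at 4-fold. It was 4 without ribosomal and mitochondrial genes, with at least 1000 genes per cell and with all barcodes, and 6 at 1.5-fold. *EGFR*, *ERBB2* and *TGFA* lie near 2-fold in this comparison. At 1.5-fold *AREG* (1.78-fold) and *ERBB3* (1.71-fold, 0.759 to 3.96) were past the limit too. With GC centring the log2 ratio of *ERBB2* in RVC over S was 1.14 in place of 0.64, past 2-fold. That of *EGFR* in RVT over S was 1.46 with TMM factors and 1.19 with GC centring in place of 1.81. The *EGFR* share of receptor UMIs was 4.49% in S and 29.5% in RV with every cell weighted equally, and 31.7% in RVC in thinned cells. No log2 ratio of a member past 2-fold turned its sign under any alternative run. The ratio of *NRG1* in *ERBB3* cells of S, 0.223 on 2 UMIs, was 1.22 where the class needed 2 *ERBB3* UMIs. The split by *SOX10* and the levels and spreads without the cell with the most UMIs were chosen after seeing the data. Depth limits *EREG* everywhere and *ERBB3* in RVC and RVT.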

Other observations

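RVT cells with *KRT81* (944) and the others had *EGFR* at 16.2 and 14.5 CPM, and the ratio, 1.12 (0.796 to 1.53), included 1. The RVT cells with an *EGFR* UMI after thinning (165) had *KRT81* at 129 against 94.6 CPM in the others (ratio 1.36, 1.04 to 1.74). They had *FOSL1* at 25.7 CPM against 14.1 CPM (ratio 1.82, 0.960 to 3.16). The 62 such cells of RVC had *FOSL1* at 163 against 111 CPM (ratio 1.46, 1.06 to 1.96). In RV, the 77 cells with *EGFR* had *FOSL1* at 426 against 345 CPM (ratio 1.23, 1.12 to 1.36) and *SOX10* at 26.7 against 41.3 CPM (0.648, upper limit 0.952). Their *KRT81* level was 689 against 594 CPM (ratio 1.16, 1.07 to 1.25). The intervals of *ERBB2* excluded 1 in mitotic cells, where it was lower (0.650, 0.415 to 0.975 in S, and 0.694, 0.478 to 0.980 in RV), and in the *KRT81* cells of RV (0.746, 0.595 to 0.931). Its intervals included 1 in the other splits of S and RV, with ratios of up to 1.46 (0.720 to 2.63) in the *ERBB3* cells of RV.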
